A study of Mus musculus with 2 samples.

Results

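Isl1 binding around the Iroquois genes was taken from the peaks of an Isl1 ChIP-Seq in mouse embryos that carried the symbol Irx1, Irx2, Irx3, Irx4, Irx5 or Irx6. Of the 48295 peaks in the list, 47 were assigned to these 6 genes. The chromatin came from the cardiogenic mesoderm and heart region of C57BL/6 embryos at E8.25 to E9, with no genetic change or treatment named in the labels, and about 60 to 80 embryos were pooled. The series holds 2 samples, the chromatin precipitated with a monoclonal antibody against Isl1 and its input, and the signal of the input was not analysed here. The list was deposited for 1 ChIP sample and gives for each peak its position in mm9, its distance to the closest transcription start site (TSS) and the gene of that TSS. It gives no height, enrichment or number of reads, so the depth is unknown, no replicate error could be attached to a peak and no comparison below was tested. The pooled tissue holds several cell types, and the list does not tell which of them carried a peak.

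Iroquois genes encode homeodomain transcription factors of the TALE class, and in mouse they lie in a pair of clusters of 3 genes that arose by duplication. By their place and sequence Irx1 is paired with Irx3, Irx2 with Irx5 and Irx4 with Irx6. The genes are separated by long stretches without other protein-coding genes, called gene deserts, in which many conserved enhancers are known. In the heart, Irx4 marks the ventricles and represses atrial genes, and Irx3 and Irx5 act in the ventricular conduction system and in the gradient of repolarization across the ventricular wall. Isl1 is a LIM-homeodomain factor of second heart field progenitors and recognizes sites with a TAAT core.

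The sequence under the peaks is shown first, for 6 peaks: 4 of the 5 within 10 kb of an Irx TSS, the Irx3 peak inside the neighbouring gene Fto and the one Irx3 peak with no purine or pyrimidine run of 25 bases anywhere in the peak. Each stretch is the forward strand of mm9 over 200 bases about the midpoint, except for Irx2, where the 163 bases of the peak upstream of the TSS are given. Capitals mark the longest run of purines (A and G) or pyrimidines (C and T) in each stretch.
Irx1, 7.24 kb upstream, chr13:72108314-72108513: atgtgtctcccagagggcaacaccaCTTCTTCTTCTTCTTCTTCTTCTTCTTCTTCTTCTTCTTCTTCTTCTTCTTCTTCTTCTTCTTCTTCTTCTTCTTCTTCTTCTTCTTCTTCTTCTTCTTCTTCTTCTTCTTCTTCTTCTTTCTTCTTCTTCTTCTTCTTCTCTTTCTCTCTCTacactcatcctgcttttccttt
Irx2, part of the peak upstream of the TSS, chr13:72766082-72766244: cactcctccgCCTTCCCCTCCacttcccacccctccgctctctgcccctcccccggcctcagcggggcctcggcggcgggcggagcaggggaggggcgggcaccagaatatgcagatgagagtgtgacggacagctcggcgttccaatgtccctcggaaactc
Irx4, 3.43 kb upstream, chr13:73394414-73394613: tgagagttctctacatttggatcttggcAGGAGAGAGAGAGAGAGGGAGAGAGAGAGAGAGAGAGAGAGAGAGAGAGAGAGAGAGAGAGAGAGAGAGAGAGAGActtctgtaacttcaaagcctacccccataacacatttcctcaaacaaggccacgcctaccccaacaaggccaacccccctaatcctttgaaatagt
Irx3, 6.49 kb downstream, chr8:94318962-94319161: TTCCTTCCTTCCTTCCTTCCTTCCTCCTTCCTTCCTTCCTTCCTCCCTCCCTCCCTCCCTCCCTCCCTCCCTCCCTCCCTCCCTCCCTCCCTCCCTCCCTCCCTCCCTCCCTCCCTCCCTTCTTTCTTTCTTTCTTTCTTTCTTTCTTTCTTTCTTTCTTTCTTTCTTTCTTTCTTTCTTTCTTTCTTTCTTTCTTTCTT
Irx3, 214 kb downstream in Fto, chr8:94111114-94111313: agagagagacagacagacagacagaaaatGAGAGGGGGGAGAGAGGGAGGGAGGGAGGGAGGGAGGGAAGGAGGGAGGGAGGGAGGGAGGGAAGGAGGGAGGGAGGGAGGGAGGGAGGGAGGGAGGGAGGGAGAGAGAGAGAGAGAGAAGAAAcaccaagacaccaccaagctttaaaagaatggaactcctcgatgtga
Irx3, 267 kb upstream, chr8:94591993-94592192: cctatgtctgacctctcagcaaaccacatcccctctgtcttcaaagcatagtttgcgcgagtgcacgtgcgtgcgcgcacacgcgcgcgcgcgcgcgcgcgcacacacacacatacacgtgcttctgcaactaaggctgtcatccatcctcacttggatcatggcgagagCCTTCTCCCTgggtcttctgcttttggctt
In 4 of these stretches the capitals form a simple repeat, CTT units upstream of Irx1, GA units upstream of Irx4, TTCC, TCCC and TTTC units downstream of Irx3 and GGGA units in Fto, with runs of 76 to 200 bases. The Irx2 stretch had no run longer than 11 bases and held 13 CG dinucleotides, and the stretch 267 kb upstream of Irx3 had no run longer than 10 bases and held 18 CG dinucleotides, many of them in a stretch of CG and CA repeats.

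All 6 Irx genes had at least 1 Isl1 peak. Among the 22238 protein-coding genes of GENCODE vM1, 45.5% had a peak by the same symbols. Irx3 had 18 peaks, the most of the family, and as many or more were assigned to 251 of the 10119 protein-coding genes in the list (2.48%). Irx1 followed with 11 peaks, a number reached by 6.35% of those genes. Irx6 had 7 peaks, Irx5 had 5 and Irx4 had the fewest, 2, which is also the median of the protein-coding genes in the list. Irx2 had 4 peaks, equal to the upper quartile. The chromosome 8 cluster of Irx3, Irx5 and Irx6 thus carried 30 peaks and the chromosome 13 cluster of Irx1, Irx2 and Irx4 carried 17. Irx1 held 11 of the 17 and Irx3 18 of the 30. Each peak was named for the closest TSS, so these counts and ranks also depend on how far other TSSs lie. They are not densities. Within 500 kb of the TSS, peaks of any name numbered 20 at Irx1 and 32 at Irx3, where protein-coding genes had quartiles of 13 and 22. Closer than 10 kb to their TSS were 5 of the 47 peaks (10.6%, exact 95% binomial interval 3.55 to 23.1%, counting error only), against 15.9% of all peaks. These 5 peaks belonged to Irx1, Irx2, Irx3 and Irx4, so 4 of the 6 genes had a peak at this distance, where 22.6% of protein-coding genes did. Closer than 1 kb, Irx2 was the one gene of the 6 with a peak, and 4.55% of protein-coding genes had one.

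**Figure D1:**
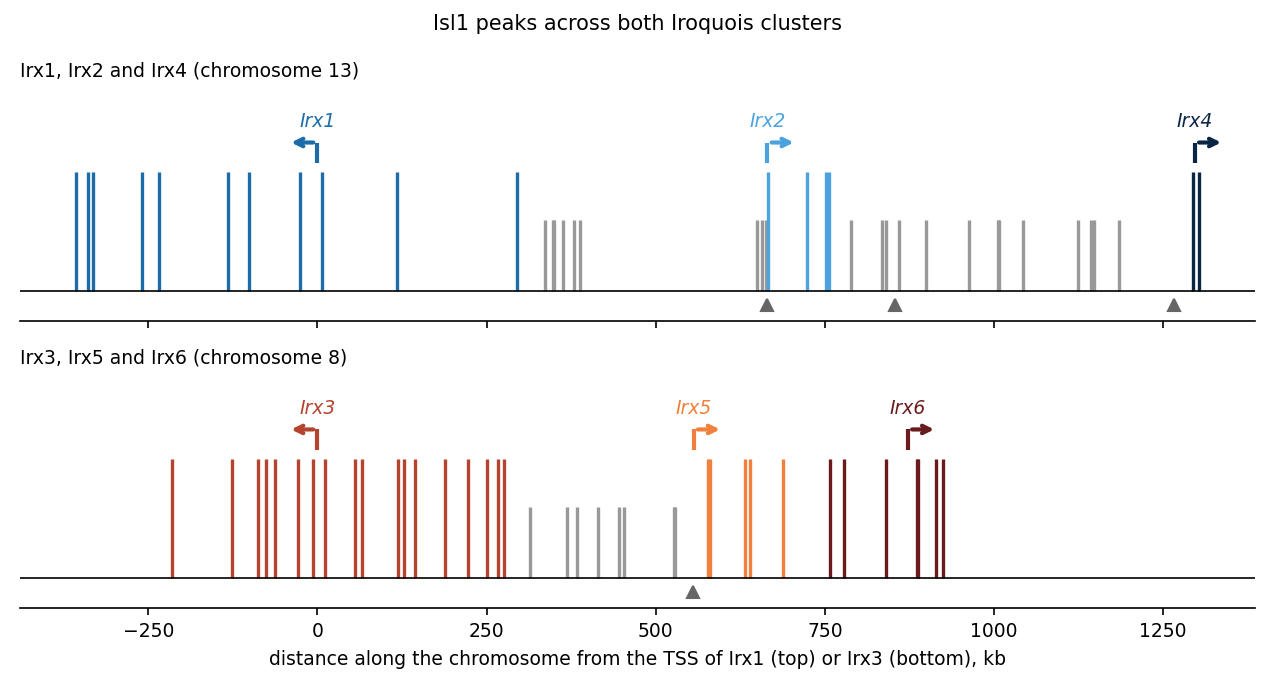
Isl1 peaks between the outermost Irx peaks of each cluster, by distance in kb along the chromosome from the TSS of Irx1 (top) or Irx3 (bottom). Tall coloured lines are the 47 peaks assigned to an Irx gene, short grey lines the 30 peaks assigned to noncoding genes, arrows the Irx TSSs with their direction of transcription and triangles the TSSs of the noncoding genes.

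Irx1 (NM_010573), transcribed from the reverse strand of chromosome 13 between 72095680 and 72101171, had 8 peaks downstream and 3 upstream of its TSS. The downstream peaks lay at 25.9, 102, 132, 234, 260.0, 332, 339.7 and 356 kb, all beyond the end of the gene in intergenic sequence. The upstream peaks, which face Irx2, lay at 7.24, 117 and 294 kb. Most Irx1 peaks were therefore far from the gene, with 9 of 11 beyond 100 kb and a median distance of 234 kb, and the most distant was the farthest of all 47. The closest, on chromosome 13 from 72108216 to 72108612, is the CTT repeat shown above.

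Irx2 (NM_010574) lies on the forward strand from 72766245 to 72771644. Its closest peak, from 72766082 to 72766635, covered the TSS, with the midpoint 0.113 kb downstream, and overlapped the first exon with untranslated and coding sequence. It was the only one of the 47 peaks over an exon. The centre of this peak, 200 bases about the midpoint, had no run longer than 7 bases. The other Irx2 peaks lay 59.1, 87.0 and 90.8 kb downstream, the last pair 3.78 kb apart, and each held a run of 56 to 141 bases. No peak upstream of the TSS was assigned to Irx2.

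Irx4 (NM_018885), from 73397945 to 73407068 on the forward strand, had 2 peaks, 3.43 kb upstream from 73394326 to 73394703, shown above, and 5.55 kb downstream from 73403241 to 73403747. The first was intergenic and the second lay in an intron of Irx4. They were 8.98 kb apart, and Irx4 was the one gene of the family with all of its named peaks within 10 kb. The next peak beyond Irx4, assigned to Slc6a3, began 254 kb away.

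Irx3 (NM_008393), on the reverse strand of chromosome 8 from 94322428 to 94325553, had peaks on both sides, 11 upstream towards Irx5 and 7 downstream towards Fto. The upstream peaks lay at 10.5, 55.4, 66.2, 119, 128, 144, 188, 223, 251, 267 and 276 kb and the downstream peaks at 6.49, 28.5, 62.7, 76.4, 87.4, 126 and 214 kb. They followed each other closely, with a median spacing of 22.0 kb and none over 87.9 kb. Of the 18 peaks, 17 were intergenic and 1, at 214 kb, lay in an intron of Fto. The peak closest to the TSS, from 94318821 to 94319303, had a centre made of pyrimidines over its full 200 bases.

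Irx5 (NM_018826), on the forward strand from 94881695 to 94885351, had 5 peaks, all downstream, at 21.5, 23.9, 76.3, 82.9 and 132 kb. They came as a pair 2.39 kb apart, a second pair 6.54 kb apart and a single peak. Irx6 (NM_022428), on the forward strand from 95198188 to 95204855, had 3 peaks upstream at 32.1, 95.02 and 114 kb and 4 downstream at 13.7, 14.3, 40.8 and 52.4 kb. The downstream peaks from 95211684 to 95212067 and from 95212223 to 95212747 were separated by 156 bp, the closest neighbours among the 47. The closest peaks of Irx5 and Irx6 were thus more than 10 kb from the TSS, and the distances of the 2 genes overlapped.

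**Figure D2:**
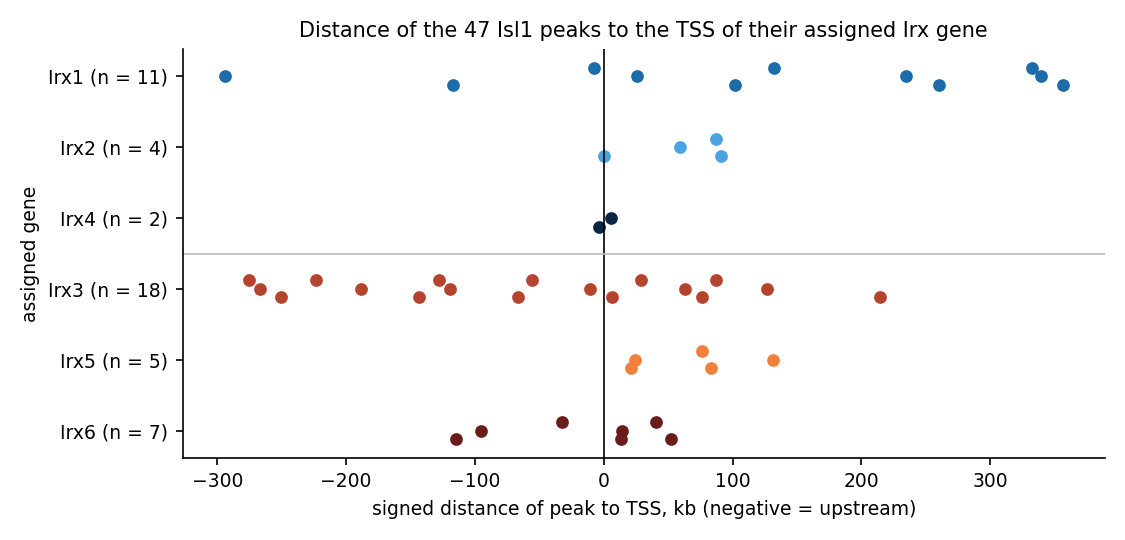
Signed distance in kb of each of the 47 peaks to the TSS of its assigned gene, one row per gene, with points spread vertically for display only. Irx1 and Irx3 peaks reach 356 and 276 kb on one side, the Irx4 peaks sit within 5.55 kb, and Irx2 and Irx5 have no point upstream.

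Over the family, the median distance to the TSS was 87.4 kb, with quartiles at 30.3 and 166 kb. For all peaks of the list the median was 58.8 kb with quartiles at 18.1 and 176 kb, so the quartile ranges overlapped. Beyond 100 kb lay 21 of the 47 peaks (44.7%, exact 95% interval 30.2 to 59.9%), against 37.5% of all peaks. None lay beyond 500 kb, where the list had 3715 of its 48295 peaks. Between 2 neighbouring Irx genes no peak could lie that far from its closest TSS, as these intervals measured 316 to 665 kb. The clusters also overlapped, with a median of 102 kb and quartiles of 25.9 and 260.0 kb on chromosome 13 and a median of 79.7 kb and quartiles of 34.3 and 131 kb on chromosome 8. Upstream of the TSS lay 18 of the 47 peaks (38.3%, interval 24.5 to 53.6%), against 47.5% of the list, 4 of 17 on chromosome 13 and 14 of 30 on chromosome 8.

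The side and the number of peaks depended on other TSSs inside the clusters, since the authors gave each peak to the closest TSS of any gene. Between the outermost Irx peaks of the clusters lay 77 peaks, and 30 of these carried the names of 4 genes with noncoding RefSeq identifiers. Gm20554 starts 233 bp from the Irx2 TSS and runs in the opposite direction, and it took 9 peaks, all on the upstream side of Irx2. In the same way Crnde starts 1676 bp from the Irx5 TSS in the opposite direction and took 8 peaks, all on the upstream side of Irx5. The desert between Irx2 and Irx4 held 9 peaks named D730050B12Rik and 4 named 4930555K05Rik. Each of these 30 peaks held a run at its centre, as did 94.1% of all peaks in the list.

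Each of the 77 peaks between the outermost Irx peaks was then given to the closest Irx TSS, a setting chosen after seeing the data. Irx2 had 19 peaks, 9 upstream and 10 downstream, and Irx5 had 13, 8 upstream and 5 downstream. Irx4 rose from 2 to 9 peaks, 8 of them upstream. The counts of Irx1, Irx3 and Irx6 stayed at 11, 18 and 7. Peaks beyond the outermost Irx peaks, such as those named Fto, were left out. No gene could therefore gain a peak on the outer side of its cluster. The chromosome 13 cluster then held 39 peaks and the chromosome 8 cluster 38, in place of 17 and 30, and 42 of the 77 peaks were upstream of the closest Irx TSS. The lower count of the chromosome 13 cluster and the lack of upstream peaks at Irx2 and Irx5 were thus not seen under this assignment. With the closest protein-coding TSS of GENCODE the clusters had 36 and 27 peaks. GENCODE lists a protein-coding gene, 4933436C20Rik, at the TSS of Crnde, and the sides per gene were not counted for this assignment. The median distance to the closest Irx TSS was 124 kb over the 77 peaks, 173 kb on chromosome 13 and 91.2 kb on chromosome 8.

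**Figure D3:**
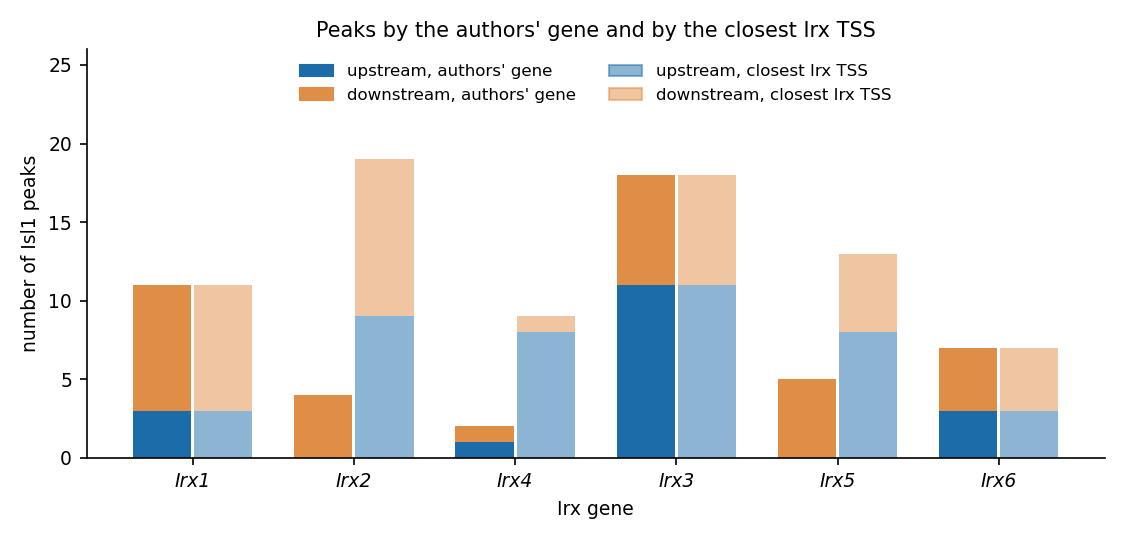
Number of Isl1 peaks per Irx gene, upstream in blue and downstream in orange, by the gene the authors assigned (dark bars) and by the closest Irx TSS (light bars). Irx2, Irx4 and Irx5 gain peaks, from 4 to 19, 2 to 9 and 5 to 13, and the other 3 genes keep their counts. Peaks beyond the outermost Irx peaks were left out, so no gene could gain peaks on the outer side of its cluster.

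The intervals between the paired genes could be compared by all peaks within them, whatever their name. From Irx1 to Irx2, over 665 kb, lay 12 peaks, or 1.80 per 100 kb, close to the 1.89 per 100 kb of the genome without gaps. From Irx3 to Irx5, the matching interval of 556 kb, lay 19 peaks, or 3.42 per 100 kb, 1.81 times the genome. The next intervals were closer to each other, with 18 peaks from Irx2 to Irx4 over 632 kb (2.85 per 100 kb) and 8 peaks from Irx5 to Irx6 over 316 kb (2.53 per 100 kb). Purine or pyrimidine runs of at least 50 bases in the DNA itself numbered 8.12 per 100 kb from Irx1 to Irx2 and 10.1 from Irx2 to Irx4. From Irx3 to Irx5 there were 11.3 and from Irx5 to Irx6 10.1, against 6.91 in the genome. The intervals with the fewest and the most peaks per 100 kb also had the fewest and the most runs. Irx1 to Irx2, however, had more runs than the genome without more peaks. Of such runs, 27.8% lay under a peak from Irx1 to Irx2, 32.8% from Irx2 to Irx4, 36.5% from Irx3 to Irx5 and 28.1% from Irx5 to Irx6, where the genome had 30.6%. The interval with the most peaks per 100 kb, Irx3 to Irx5, thus had both the highest density of runs and the highest share of them under a peak. The part of these runs in the densities was not tested.

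The lower density from Irx1 to Irx2 came with long stretches without peaks. One of 261 kb, from 72489280 to 72750013, ended close to the Irx2 TSS, and another of 177 kb, from 72218627 to 72395238, lay nearer to Irx1. Between Irx3 and Irx6 no stretch without peaks was longer than 74.0 kb. Around the TSS of Irx3 and around that of Irx5, windows of 500 kb to either side held 32 peaks each, and 97.2% of the 22219 protein-coding genes with such a window had fewer. The windows held 27 peaks at Irx6, 26 at Irx2, 25 at Irx4 and 20 at Irx1, against a median of 17 and quartiles of 13 and 22. Windows of neighbouring Irx genes overlap and share peaks, so these are not independent counts.

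**Figure D4:**
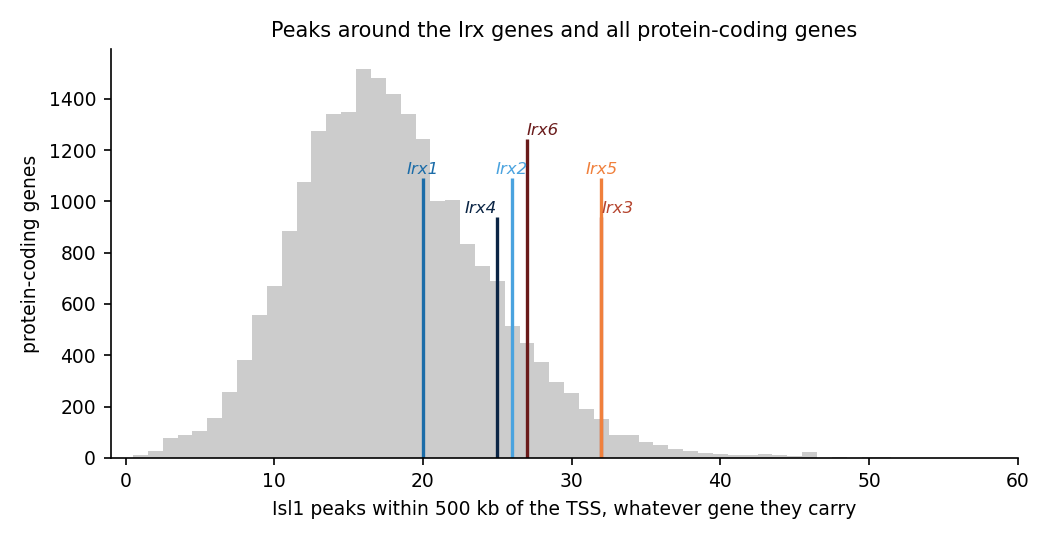
Histogram of the number of Isl1 peaks within 500 kb of the TSS over protein-coding genes (grey), with the 6 Irx genes as coloured lines. Irx1, at 20 peaks, falls inside the quartiles of 13 and 22, and Irx3 and Irx5 stand at 32.

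Neighbouring peaks assigned to the family were 30.5 kb apart in the median, 46.0 kb on chromosome 13 and 26.6 kb on chromosome 8. Counting all peaks between the outermost Irx peaks, whatever their name, the medians of the clusters were close, 29.2 kb on chromosome 13 and 27.7 kb on chromosome 8. Together the median was 27.9 kb, against 34.0 kb for neighbouring peaks of the whole list. Of the 16 spacings on chromosome 13, 5 exceeded 100 kb, and of the 29 on chromosome 8, 1 did. Over both clusters this was 13.3%, against 15.2% of the spacings of the list. The measures differ, since the spacings of the list run between neighbours of any name and those of the family skip peaks with other names. The longest, 538 kb between an Irx2 and an Irx4 peak and 371 kb between an Irx1 and an Irx2 peak, spanned 13 and 9 peaks that carried other names. On chromosome 8 the one above 100 kb, 302 kb between an Irx3 and an Irx5 peak, spanned 8 such peaks. With all peaks counted, no spacing on chromosome 8 exceeded 87.9 kb.

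Irx peaks had a median width of 506 bp (quartiles 383 and 596 bp), against 466 bp (375 and 576 bp) for the list. The narrowest, 289 bp, and the widest, 843 bp, were both Irx3 peaks, from 94296923 to 94297212 and from 94262459 to 94263302. Among the Irx peaks of the chromosome 13 cluster the widths ran from 314 to 624 bp. Both extremes belonged to Irx1, from 72075162 to 72075476 and from 72218003 to 72218627. Peaks wider than 600 bp numbered 2 of 17 on chromosome 13 and 10 of 30 on chromosome 8, where 20.8% of the list was that wide. These counts leave out the peaks with other names inside the clusters. Such peaks reached 716 bp for Gm20554 and 712 bp for D730050B12Rik on chromosome 13, and 636 bp for Crnde on chromosome 8. Irx3 had a median width of 581.5 bp and Irx6 of 524 bp, while Irx5 in the same cluster had 408 bp and a maximum of 479 bp.

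Width went together with the length of the purine or pyrimidine run inside the peak. The run was sought over the whole peak, so the width limits its length and a wider peak offers more sequence. Width and run length are therefore not independent measures. A run of at least 200 bases was present in 12 of the 30 chromosome 8 peaks and in none of the 17 chromosome 13 peaks, against 17.7% of the list. The 12 peaks had a median width of 683.5 bp and the other 18 on chromosome 8 of 438 bp, and over the list the medians were 568 and 445 bp. The lack of such runs on chromosome 13 rests on this limit, as the Irx1 peak 132 kb downstream held a run of 194 bases. The lack also holds for the Irx-named peaks only. Inside that cluster, the Gm20554 peaks from 72449047 to 72449489 and from 72463438 to 72464039 had centres that were a single run over 200 bases. The longest run, 599 of the 820 bases of the peak from 95083322 to 95084142, lay 114 kb upstream of Irx6, and a run of 518 bases lay in the Irx6 peak at 52.4 kb. The reverse did not hold for every peak, as the widest Irx3 peak had a run of 153 bases.

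**Figure D5:**
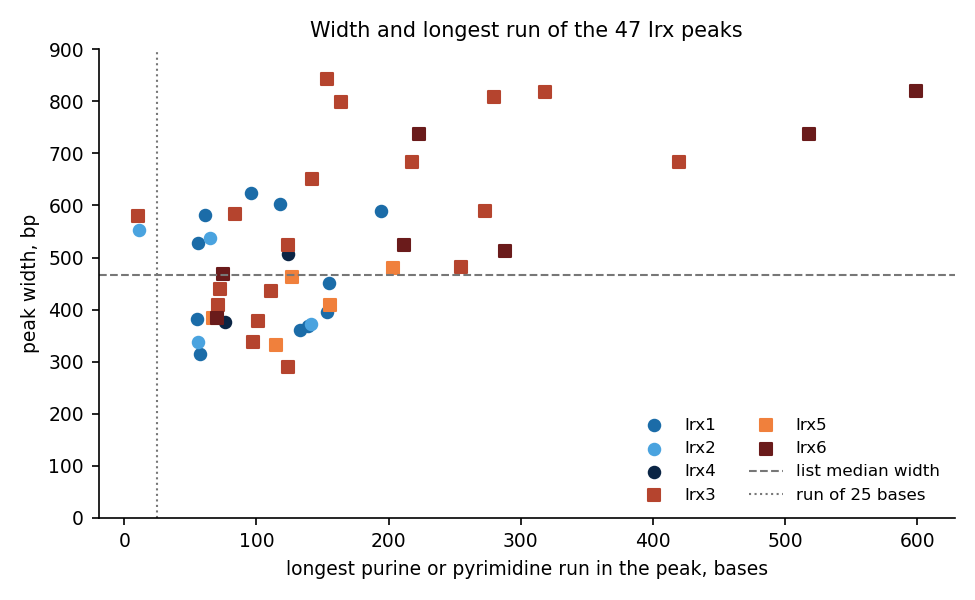
Width in bp against the longest purine or pyrimidine run in bases for each of the 47 peaks, with circles for the chromosome 13 genes and squares for the chromosome 8 genes. The dashed line is the median width of the list, 466 bp, the dotted line a run of 25 bases, and the 2 points to its left are the Irx2 promoter peak and the Irx3 peak 267 kb upstream.

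Within 100 bp of the midpoint, 42 of the 47 peaks (89.4%, exact 95% interval 76.9 to 96.5%) contained 25 or more purines or pyrimidines without interruption, a share that was 94.1% over all peaks. In windows 1 kb to either side of the Irx peaks the share was 3.19%. Taking the whole peak, 45 of 47 held such a run, purines in 21 and pyrimidines in 24 on the forward strand. The exceptions were the Irx2 promoter peak, with at most 11 bases, and the Irx3 peak from 94591804 to 94592383, with at most 10, while 3.74% of the list had none. Counting only peaks without a run at the centre, 5 remained, 1 of Irx2 and 4 of Irx3. How far the repeats themselves account for the peaks was not tested.

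Uninterrupted repeats of at least 4 CT or GA units lay at the centre of 25 of the 47 peaks (53.2%), against 56.1% of the list. The homeodomain core TAAT, searched as TAAT or ATTA, was present at 13 centres (27.7%, exact 95% interval 15.6 to 42.6%). It was present at 35.3% of all centres and in 64.9% of windows 1 kb away from the Irx peaks. TAAT holds both purines and pyrimidines and cannot lie inside a run. The longest run at the Irx centres had a median of 104 of 200 bases. The centres thus left less sequence for TAAT than the windows, and the shares were not corrected for this. The palindrome ACANNTGT, a known binding sequence of Irx proteins, was found at 0 of 47 centres and at 3.24% of all centres. The 0 allows a share of up to 6.38% when 3 counts are taken as the limit (exact 95% upper bound 7.55%). In windows 1 kb away from the Irx peaks the share was 9.57%. Like TAAT, the palindrome cannot lie inside a run. Intergenic sequence held 44 of the 47 midpoints (93.6%, interval 82.5 to 98.7%), against 64.1% of the list. Of the others, 1 lay in an exon of Irx2, 1 in an intron of Irx4 and 1 in an intron of Fto.

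Fto, an RNA demethylase gene next to Irx3 whose introns are known to hold long-range enhancers of Irx3, contained 9 peaks over its 355 kb. Of these, 8 were named Fto and 1 Irx3, and none overlapped an annotated exon. They lay between 214 and 415 kb downstream of the Irx3 TSS at 2.54 peaks per 100 kb. Of the 9, 7 held a run at the centre, against 94.1% of all peaks. The 8 lie closer to the Fto TSS and are not among the 47.

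As a comparison, the 12 other TALE homeobox genes had 52 peaks, with a median of 3.5 per gene against 6 for the Irx genes. Meis1, a cofactor of Hox proteins, had 16 peaks, between the counts of Irx1 and Irx3, while Pbx2 and Tgif2 had 0. Their peaks lay at a median of 99.6 kb from the TSS, and 92.3% held a run. The Hox genes are also clustered homeobox genes but with short distances between them. Of 39 Hox genes, 16 had a peak (41.0%, against 45.5% of all protein-coding genes). They had at most 3 peaks per gene and a median distance of 4.27 kb. Naming by the closest TSS limits both values where TSSs lie close together. The ranges of the Irx genes (2 to 18 peaks) and the other TALE genes (0 to 16) overlapped, and with 1 list the difference in level was not tested.

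Genes that are known to act with Irx factors in the ventricle were counted in 3 groups. A count of 0 means only that no peak in this list had the TSS of that gene as its closest. Of 12 partners and regulators, 9 had a peak, among them Tbx5 with 10 and Gata6 with 8, and Gata4, Smyd1 and Smarcd3 had 0. The paper lists Gata4 and Smarcd3 (Baf60c) among primary Isl1 targets. It used binding in embryos or in cardiac progenitors derived from embryonic stem cells. Of 9 chamber genes, 4 had a peak, Hey2 with 7 and Bmp10, Hey1 and Myl2 with 2 each, whereas Nppa, Nppb, Myh6, Myh7 and Myl7 had 0. All 7 conduction genes had a peak, led by Gja1, the gene of connexin 43, with 18, and Kcnd2, the potassium channel gene repressed by Irx5 in the ventricle, with 17. The share over all protein-coding genes was 45.5%. The groups are small, and whether their shares differ from that of all protein-coding genes was not tested.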

How the data were processed

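Isl1 ChIP-Seq peaks from pooled cardiogenic regions of E8.25 to E9 mouse embryos were used, 1 list from 1 ChIP sample. Per the methods and labels, the authors aligned reads to mm9 (bowtie2), discarded duplicates (Picard 1.136), ran MACS at a preset p-value, dropped ENCODE blacklist regions and named the gene of the nearest TSS. The deposited values are positions and signed TSS distances in bp. Whether this list is an intersection of replicates is not given in the sources used here, and the input was not analysed here. A second header line was skipped. Some items are not reported here.

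Members were the peaks with an Irx symbol. Members, gene lists and sequence features were chosen with earlier results of these data known. Described one by one were the 6 genes, the closest, farthest, widest and narrowest peak of each cluster and every peak within 10 kb of a member TSS. Width is end minus start, and negative distances are upstream. GENCODE vM1 gave exons, introns and protein-coding genes, matched by symbol, and sequence was read from NCBIM37, which is mm9. The TSSs of the 6 genes were the same in the list and in GENCODE. A run is 25 or more uninterrupted purines or pyrimidines in the 200 bases about a midpoint. With 1 list no test was made, and exact (Clopper-Pearson) 95% binomial intervals cover counting error only. The searches for closest TSSs and for runs were tested on simulated data and recovered 2000 of 2000 positions and 1000 of 1000 planted runs. Computations used pandas 2.3.3 and numpy 2.4.6 under Python 3.11.15, intervals scipy 1.17.1 and plots matplotlib 3.10.9. Alternatives changed the assignment, the width, distance and run limits and the treatment of close peaks.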

Additional observations from a re-analysis of the deposited data

How the results depend on the processing

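Of 42 alternative values for 9 results, 25 stayed within 1.5 times of a count or within the quartiles or interval of another value, and 17 did not. The number of Irx peaks, 47, became 27 with peaks wider than the list median, 26 within 100 kb of the TSS, 5 within 10 kb and 5 without a run. By cluster, the 17 peaks on chromosome 13 became 8, 8, 4 and 1 under these settings and the 30 on chromosome 8 became 19, 18, 1 and 4. Assigned to the nearest GENCODE protein-coding gene start, the chromosome 13 count was 36. With the closest Irx TSS, chosen after seeing the data and limited to peaks between the outermost Irx peaks, that count was 39 and the family count 77. The share upstream of the TSS, 38.3%, was 60.0% over the 5 peaks without a run and 54.5% with the closest Irx TSS. Width stood in for a stricter peak threshold, since the list gives no p-value. With 1 list, leaving out a replicate was not possible.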

Other observations

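On the far side of Irx1, the next named peaks belonged to Mir466f-4, a microRNA gene whose TSS lies 855 kb from that of Irx1. It had 12 peaks, all with a run at the centre, as 94.1% of all peaks had. The nearest protein-coding gene beyond Irx4, Ndufs6, had no peak in the list. The nearest protein-coding genes with peaks beyond the clusters were 8030423J24Rik with 2 peaks and Slc6a3, the dopamine transporter gene, with 4 on chromosome 13, and Fto with 8 and Mmp2, a matrix metalloproteinase gene, with 3 on chromosome 8. The stretches without any peak just outside the clusters measured 74.8 kb beyond the Irx1 peaks and 254 kb beyond Irx4. They measured 80.3 kb between the Irx3 and Fto peaks and 97.3 kb between the Irx6 and Mmp2 peaks. Inside the clusters such stretches reached 261 kb on chromosome 13 and 87.3 kb on chromosome 8. Of the outer stretches, only the 97.3 kb beyond the Irx6 peaks was longer than the longest inside its cluster. Whether their length marks a boundary was not tested.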
